A study of Mus musculus with 2 samples.

Results

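The genes described here are 10 core genes of the Notch pathway, measured in poly(A) RNA of mouse small intestine. They are the receptors Notch1, Notch2, Notch3 and Notch4, the ligands Dll1, Dll4, Jag1 and Jag2, the nuclear factor Rbpj, and the target gene Hes1. They were taken by gene symbol, and all 10 were present among the 43346 Ensembl genes listed in both gene tables. The tissue came from 1 adult female C57BL/6J mouse, aged 10 weeks, with no treatment or engineered allele named in the labels. From it, 2 technical libraries were sequenced, called here the second library (technical replicate 2, made in 2015) and the first library (technical replicate 1). Both libraries come from 1 biological sample, so every test below compares 2 libraries and covers counting error only, not variation between mice.

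Notch signalling passes between touching cells. A ligand of the Delta or Jagged family on one cell binds a Notch receptor on its neighbour, proteases then cut the receptor, and its freed intracellular part enters the nucleus and joins the DNA-binding protein RBPJ to switch on genes such as Hes1. In intestinal crypts, Notch1 and Notch2 with Dll1 and Dll4 are known to keep stem and progenitor cells dividing and to hold back the secretory fate driven by Atoh1. Notch3 is best known in the mural cells around vessels, and Notch4 and Dll4 in vascular endothelium, although Dll4 is also made by crypt cells.

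The libraries differed widely. They held 24509862 expected counts in the second library, with 28277875 in the first. Mitochondrial genes took 11.4% of all TPM (a relative transcript level corrected for transcript length) in the second library, with 49.2% in the first, so TPM values of nuclear genes are pressed down in the first. Of 15194 genes with at least 20 counts over both libraries, 40.2% were called higher in the second library and 27.4% higher in the first. A call needed an adjusted p under 0.05 in a two-sided exact binomial test, Benjamini-Hochberg adjusted over all genes tested, and a difference of at least 2-fold. The epithelial markers Epcam, Vil1, Cdh1, Krt8, Krt19 and Cdx2 were all at 1 TPM or more in both libraries, with a summed level of 3799 TPM in the second library and 465.2 TPM in the first, so intestinal epithelium was detected in both. The 5 crypt stem cell markers (Lgr5, Olfm4, Ascl2, Smoc2 and Axin2) summed to 256.2 TPM in the second library and 167.8 TPM in the first, with 3 called higher in the second and 1 in the first. After removal of a trend with GC content, described after the levels, 0 were called higher in the second and 1 in the first. The background was then 14.2% and 12.7% over all genes.

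All 10 Notch genes passed the count minimum. Of them, 6 were called higher in the second library, namely Notch1, Notch3, Notch4, Dll1, Dll4 and Jag2, beside a background of 40.2%. Of the 10, only Rbpj was called higher in the first library, beside a background of 27.4%. Notch2, Jag1 and Hes1 passed the test but differed by less than 2-fold. The median log2 ratio, second over first library, was 2.02 over the 10 genes and 0.26 over all genes tested. These ratios followed the base composition of the transcripts, which is described after the levels.

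**Figure D1:**
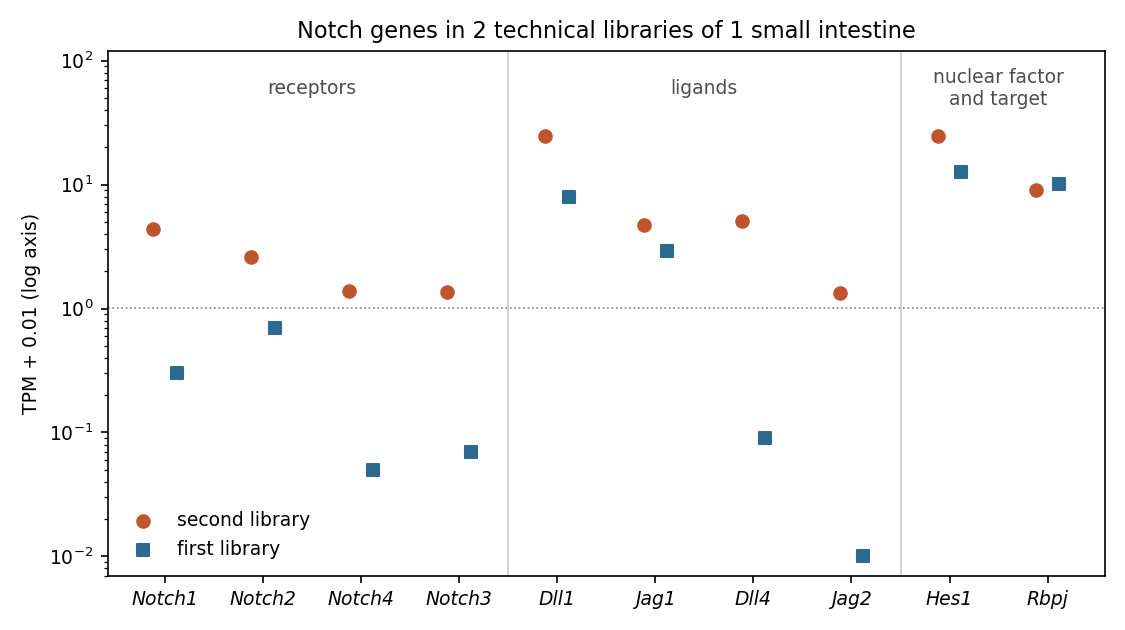
Level of each Notch gene in the second library (circles) and the first library (squares), as TPM plus 0.01 on a log axis, grouped by role, with a dotted line at 1 TPM. All 10 genes lie above the line in the second library, and 4 of them, Dll1, Jag1, Hes1 and Rbpj, also do so in the first; the square for Jag2 marks 0 TPM.

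Ordered by the mean TPM of both libraries, Hes1 (18.5) was followed by Dll1 (16.4), Rbpj (9.58), Jag1 (3.79), Dll4 (2.58), Notch1 (2.34), Notch2 (1.64), Notch4 and Notch3 (0.705 each) and Jag2 (0.665). Only 3 neighbouring pairs in that order stood the same way round in both libraries: Rbpj above Jag1, Notch2 above Notch4, and Notch3 above Jag2. The other neighbours changed places between the libraries. Across the 10 genes the Spearman correlation of TPM between the libraries was 0.867, and across 14019 nuclear protein-coding genes it was 0.623. Genes of 1 animal share both libraries, so these correlations are descriptions.

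The receptors were the least abundant group and differed strongly between the libraries. Their summed level was 9.69 TPM in the second library and 1.07 TPM in the first. Notch1, at chr2:26457903-26516663 on the minus strand, encodes a receptor needed in crypt progenitors. It had 767 counts and 4.38 TPM in the second library, against 81 counts and 0.29 TPM in the first. Notch1 was thus 6.07-fold higher in the second library, a log2 ratio of 2.60 with a 95% counting interval of 2.28 to 2.96 (exact binomial test, adjusted p = 8.09e-84). The authors' own interval for its TPM, 5.73 to 20.1 in the second library and 1.35 to 13.2 in the first, lies above the TPM listed in both. Their posterior mean was 11.8 TPM in the second library and 6.17 TPM in the first, so the level of Notch1 depends on which estimate is read.

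Notch2, at chr3:98013527-98150361 on the plus strand, acts beside Notch1 in the crypt. It had 503 counts and 2.59 TPM in the second library, against 207 counts and 0.68 TPM in the first. The difference was 1.56-fold, a log2 ratio of 0.65 with an interval of 0.41 to 0.89 (exact binomial test, adjusted p = 4.13e-08), and so under the 2-fold limit. Notch1 held the larger share of the receptors' summed TPM in the second library, at 45.2%, with Notch2 at 26.7%. In the first library Notch2 led with 63.6%, and Notch1 held 27.1%. By the listed TPM, which receptor was most abundant therefore depended on the library. By the authors' posterior mean, Notch1 led in both libraries. It stood at 11.8 TPM (second) and 6.17 TPM (first), and Notch2 at 2.48 TPM (second) and 0.66 TPM (first). Of that estimate, Notch1-201, the only Notch1 transcript with expected counts, held 35.53% (second) and 4.69% (first). Notch1-208, with 157 bases and a posterior count of 0 in both, held 31.23% (second) and 51.35% (first). For the first library, the TPM interval of Notch1-201, 0.229 to 0.353, lay below that of Notch2, 0.573 to 0.751. The lead of Notch1 there thus rested on transcripts without expected counts.

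Notch3, at chr17:32120820-32166852 on the minus strand, had 200 counts and 1.35 TPM in the second library, against 13 counts and 0.06 TPM in the first. Its log2 ratio was 3.26, with an interval of 2.50 to 4.24 (exact binomial test, adjusted p = 2.88e-28). Notch4, at chr17:34564268-34588503 on the plus strand, had 135 counts and 1.37 TPM in the second library, against 8 counts and 0.04 TPM in the first. Its log2 ratio was 3.36, with an interval of 2.42 to 4.68 (exact binomial test, adjusted p = 5.32e-20). Both genes were near the limit of detection in the first library. As for Notch1, the authors' interval for Notch4, 2.16 to 5.55 TPM in the second library and 0.51 to 2.66 TPM in the first, lies above its listed TPM.

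Markers of the vessel cells known for Notch3, Notch4 and Dll4 differed between the libraries as well. The 8 endothelial markers (Pecam1, Cdh5, Kdr, Plvap, Egfl7, Emcn, Tie1 and Tek) summed to 124.2 TPM in the second library and 18.1 TPM in the first, with 5 called higher in the second and 1 in the first. The 8 mural and smooth muscle markers (Acta2, Myh11, Tagln, Myl9, Des, Rgs5, Pdgfrb and Cspg4) summed to 799.1 TPM in the second library and 118.8 TPM in the first, with 7 called higher in the second and 1 in the first. After removal of the trend with GC content that is described after the levels, 1 endothelial and 5 mural markers were called higher in the second library, and no marker of either list in the first. By that rule the background was 14.2% for the second library and 12.7% for the first. None of these 16 markers was at 0 in either library. Their part in the Notch values was not tested. Both libraries come from 1 biological sample, so these are differences between libraries. A difference in library making, fewer cells of a type and less RNA per cell cannot be told apart here.

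By the TPM of whole genes, the ligands were led by Dll1 in both libraries. Their summed level was 35.9 TPM in the second library and 10.97 TPM in the first, and Dll1 held 69.2% of it in the second and 72.8% in the first. Dll1, at chr17:15367354-15376872 on the minus strand, encodes a Delta ligand of crypt secretory progenitors. It had 1220 counts and 24.8 TPM in the second library, against 289 counts and 7.99 TPM in the first. This was a 2.72-fold difference, a log2 ratio of 1.44 with an interval of 1.26 to 1.63 (exact binomial test, adjusted p = 1.76e-62). With TPM rescaled over nuclear protein-coding genes alone, which leaves the mitochondrial genes out of the denominator, Dll1 stood at 32.8 in the second library, with 29.8 in the first. In the first library 6.12 TPM of Dll1 belonged to Dll1-204, a short retained-intron transcript described below. Protein-coding Dll1-201 stood at 1.87 TPM there, below protein-coding Jag1-201 at 2.30 TPM. In the second library Dll1-201 stood at 17.9 TPM and Jag1-201 at 3.47 TPM.

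Dll4, at chr2:119325784-119335962 on the plus strand, encodes the Delta ligand of crypt and endothelial cells. It had 341 counts and 5.07 TPM in the second library, against 8 counts and 0.08 TPM in the first. It was 25.9-fold higher in the second library, a log2 ratio of 4.70 with an interval of 3.79 to 6.00 (exact binomial test, adjusted p = 3.27e-61). Of the core genes with counts in both libraries, Dll4 had the highest ratio. Its share of the ligands' TPM was 14.1% in the second library, with 0.729% in the first.

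The 2 Jagged genes stood apart from each other. Jag1, at chr2:137081456-137116644 on the minus strand, had 384 counts and 4.67 TPM in the second library, against 392 counts and 2.90 TPM in the first. On scaled counts it was 1.58-fold higher in the first library, a log2 ratio of -0.66 with an interval of -0.87 to -0.46 (exact binomial test, adjusted p = 3.51e-10), which is under the 2-fold limit. Jag2, at chr12:112907819-112929776 on the minus strand, had 97 counts and 1.33 TPM in the second library, against 0 counts in the first. Taken against 3 counts, the limit that a count of 0 allows in the first library, Jag2 was 20.9-fold higher in the second. That figure leaves out the counting error of the 97 counts, so it is not a lower bound. The counting interval of its log2 ratio began at 4.06 and had no upper bound. The test against an equal level in both libraries was passed (exact binomial test, adjusted p = 4.05e-21). Jag2 would therefore have been read as undetected from the first library alone.

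Hes1 and Rbpj, which act in the nucleus, were well above 1 TPM in both libraries. Hes1, at chr16:30064384-30067796 on the plus strand, encodes a transcriptional repressor that holds down Atoh1. It had 548 counts and 24.4 TPM in the second library, against 478 counts and 12.6 TPM in the first. The direction depended on the scale, since its TPM was higher in the second library while its scaled count was 1.35-fold higher in the first. With TPM rescaled over nuclear protein-coding genes it was also higher in the first, at 32.3 in the second library and at 47.2 in the first. The log2 ratio of scaled counts was -0.44, with an interval of -0.62 to -0.26 (exact binomial test, adjusted p = 2.52e-06). Hes1 stood at the 80.8th percentile of nuclear protein-coding genes by TPM in the second library and at the 85.4th in the first.

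Rbpj, at chr5:53466152-53657362 on the plus strand, encodes the DNA-binding partner of all 4 receptors. It had 892.0 counts and 9.04 TPM in the second library, against 1558 counts and 10.1 TPM in the first. On scaled counts it was 2.71-fold higher in the first library, a log2 ratio of -1.44 with an interval of -1.56 to -1.32 (exact binomial test, adjusted p = 5.26e-130). On deposited TPM the 2-fold limit was not reached, but with TPM rescaled over nuclear protein-coding genes Rbpj stood at 11.96 in the second library and at 37.7 in the first.

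The 2 libraries assigned Rbpj to different transcripts. Rbpj-203 took 100% of the gene's TPM (892.0 counts) in the second library, against 14.3% (224.0 counts) in the first. Rbpj-202 took 0% (0 counts) in the second library, against 85.7% (1334 counts) in the first. The authors' posterior estimate softened this split but kept its direction, giving Rbpj-203 86.0% in the second library, with 18.7% in the first. The split is uncertain. The posterior count of Rbpj-203 in the first library was 292.2 (SD 197.65), with a TPM interval of 9.69e-06 to 4.21. For Rbpj-202 in the second library the interval reached 2.15 TPM. In the M21 annotation the transcripts share 9 identical internal exons and begin 34637 bases apart. The first exon of Rbpj-203 has 254 bases and a GC content of 69.7% (chr5:53590471-53590724), and that of Rbpj-202 has 70 bases and a lower GC content (chr5:53555834-53555903). The different starts give the proteins different first residues. The coding bases of each first exon are shown because they separate the 2 proteins, with the start codon in capitals (mm10, plus strand, 5′ to 3′). They lie at chr5:53590705-53590724 for Rbpj-203 and at chr5:53555890-53555903 for Rbpj-202.
Rbpj-203: ATGgcgcctgttgtgacagg
Rbpj-202: ATGttggcctatag
The first exon makes up 254 of the 5420 bases of Rbpj-203, so most bases of the 2 transcripts are shared. The deposited length of Rbpj-202 is 5394 bases, a smaller gap than between the M21 first exons of 254 and 70 bases. The first exon counted for Rbpj-202 may therefore differ from the M21 exon described here.

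**Figure D2:**
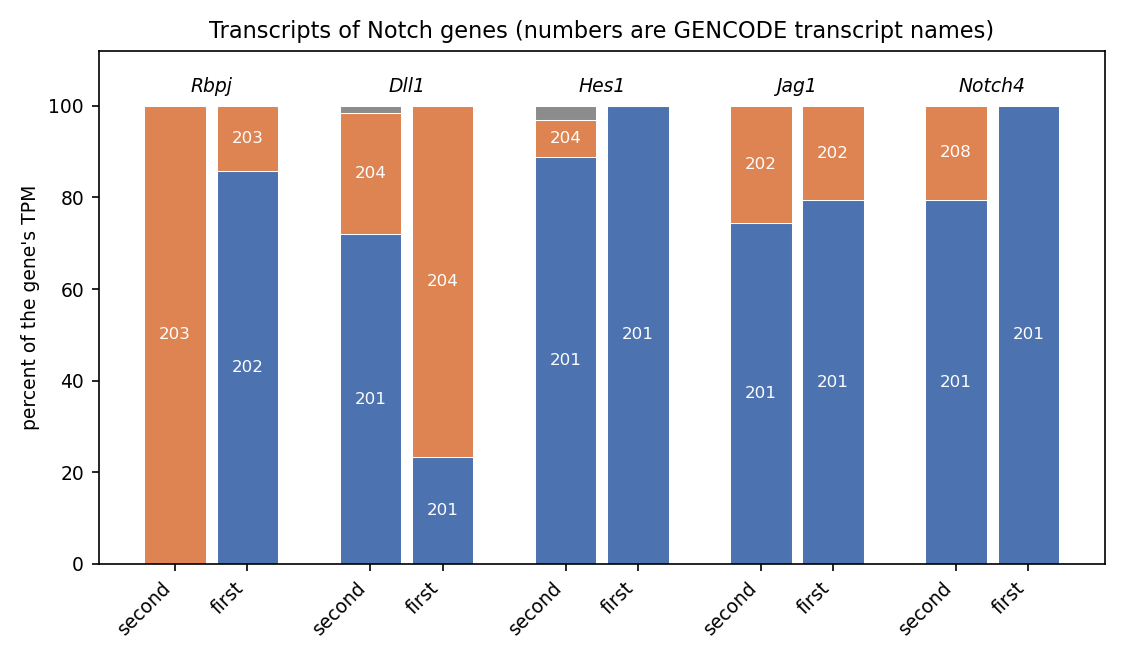
Percent of each gene's TPM assigned to its transcripts, for the 5 Notch genes with more than 1 transcript holding counts, in the second library (left bar of each pair) and the first library (right bar); grey marks any further transcripts. Rbpj is all Rbpj-203 in the second library and mostly Rbpj-202 in the first, and Dll1 is mostly Dll1-201 in the second and mostly Dll1-204 in the first.

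Near the start of Rbpj-203 the RefSeq promoter table (GRCm38.p6) lists 2 start sites for Rbpj. The 250 bases before the more upstream one are shown because RBPJ's own core motif occurs in them. Capitals mark the matches to TGGGAA on either strand.
Rbpj, chr5:53590096-53590345, plus strand: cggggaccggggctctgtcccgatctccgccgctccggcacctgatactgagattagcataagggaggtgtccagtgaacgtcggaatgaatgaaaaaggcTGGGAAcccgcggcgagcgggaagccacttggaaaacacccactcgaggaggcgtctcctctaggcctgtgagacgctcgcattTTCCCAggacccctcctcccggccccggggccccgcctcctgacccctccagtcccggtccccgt
The matches lie 149 and 65 bases before the start, and the window has a GC content of 65.2%. TGGGAA occurred on either strand in 21.6% of all 32851 windows of 250 bases in the table and in 2 of the 11 windows of the Notch genes listed there, both of Rbpj. Those 2 windows overlap, and the single match in the other one is the same site as the match nearer the start here. Hes1 has no window in that table, so the bases before its start were not searched. The GC box, GGGCGG on either strand, occurred in 32.7% of all windows and in 5 of the 11. TATAAA on either strand occurred in 12.4% of all windows and in 0 of the 11. The window shown holds neither a GC box nor TATAAA, and a match describes the sequence only.

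Dll1 also changed transcripts between the libraries. Its protein-coding transcript Dll1-201 held 1145 counts and 71.98% of the gene's TPM in the second library, against 187.3 counts and 23.4% in the first. The shorter Dll1-204, a retained-intron transcript of 751 bases at the 3′ end of the gene (chr17:15367525-15368390), held 71.1 counts and 26.5% in the second library, against 101.7 counts and 76.6% in the first. The protein-coding form therefore stood at 17.9 TPM in the second library and 1.87 TPM in the first, a log2 ratio of 1.98 on scaled counts. Dll1-204 stood at 6.58 TPM in the second library and 6.12 TPM in the first, a log2 ratio of -1.15. Dll1-201 has a GC content of 54.9% and Dll1-204 of 45.3%. A short transcript turns few reads into a high TPM, and the effective length of the gene was 2610 bases in the second library, with 1222 in the first.

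The remaining genes were simpler. Hes1-201, the protein-coding form, held 88.7% of Hes1 TPM in the second library, with 100% in the first. The other counted forms of Hes1, a noncoding and a retained-intron transcript, had 18 and 3.21 counts in the second library, and both had 0 in the first. Jag1-201 held 74.4% of Jag1 in the second library, with 79.3% in the first, with the rest in a retained-intron form. Notch4-201 held 79.4% in the second library, with 100% in the first, with the rest in Notch4-208, a transcript annotated for nonsense-mediated decay. Notch1, Notch2, Notch3, Dll4 and Jag2 each had counts in 1 transcript only.

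The ratios of the 10 genes ordered with the GC content of their transcripts. Rbpj, the gene of lowest GC content at 43.4%, had the lowest ratio, and Jag2, the gene of highest GC content at 61.9%, the highest. Between them lay Jag1 (48.8%), Hes1 (51.0%), Notch2 (53.6%), Dll1 (53.8%), Dll4 (55.9%), Notch1 (57.1%), Notch3 (59.6%) and Notch4 (61.3%). Across the 10 genes the correlation of GC content with the log2 ratio was 0.876 (Pearson) and 0.927 (Spearman), and across the 14019 nuclear protein-coding genes it was 0.848 and 0.906. The median log2 ratio of those genes was -1.54 at 40% to 45% GC, -0.42 at 45% to 50%, 1.47 at 50% to 55% and 4.45 at 55% or more. In the last of these bins, which holds 5 of the 10 Notch genes, 95.2% of genes were called higher in the second library.

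**Figure D3:**
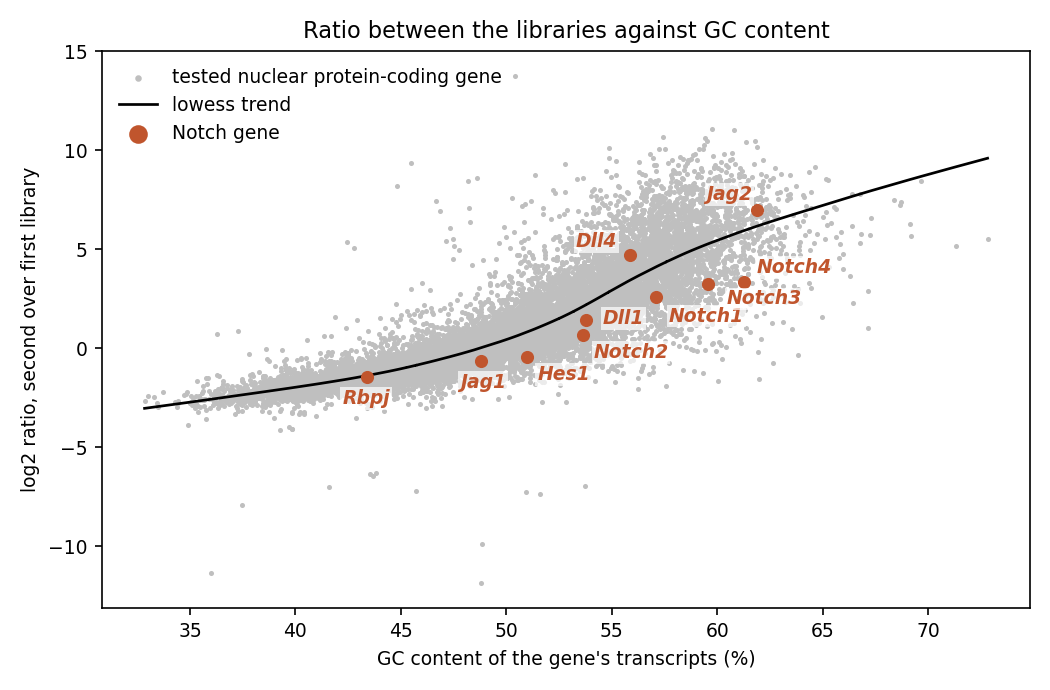
Log2 ratio of the second over the first library against the GC content of each gene's transcripts, for the 14019 tested nuclear protein-coding genes (grey) and the 10 Notch genes (orange), with the lowess trend as a line. The ratio climbs with GC content, Dll4 and Jag2 lie above the trend, Rbpj lies on it, and the 4 receptors, Dll1, Jag1 and Hes1 lie below it.

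With that trend subtracted, the receptors changed direction. All 4 receptors were then called higher in the first library, with log2 ratios of -1.51 for Notch1, -1.46 for Notch2, -2.01 for Notch3 and -2.58 for Notch4. Over all genes, that rule called 14.2% higher in the second library and 12.7% higher in the first. Among the ligands only Dll4 was called, higher in the second library, with a log2 ratio of 1.27 and an interval of 0.36 to 2.58 (exact binomial test, adjusted p = 0.00741). That interval covers counting error only. Across the 3336 genes of at least 55% GC, Dll4 among them, the ratio had an SD of 1.99, so Dll4 lay within their spread. Dll1 and Jag1 stood at -0.75 and -0.67, under the 2-fold limit. Jag2 stood at 0.82, with a lower bound of -2.10 and no upper bound, because its count in the first library is 0 (exact binomial test, adjusted p = 0.8975).

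Hes1 was called higher in the first library, at -1.25, or at -5.07 with an unweighted mean of GC content over its transcripts. Rbpj was close to even, at -0.05 with an interval of -0.17 to 0.07 (exact binomial test, adjusted p = 0.4781). In all, 1 gene was called higher in the second library, 5 in the first and 4 in neither, and the median over the 10 genes was -0.997, against -0.00996 over all genes tested. The direction of 5 genes, the receptors and Dll1, thus depended on whether GC content was taken into account.

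**Figure D4:**
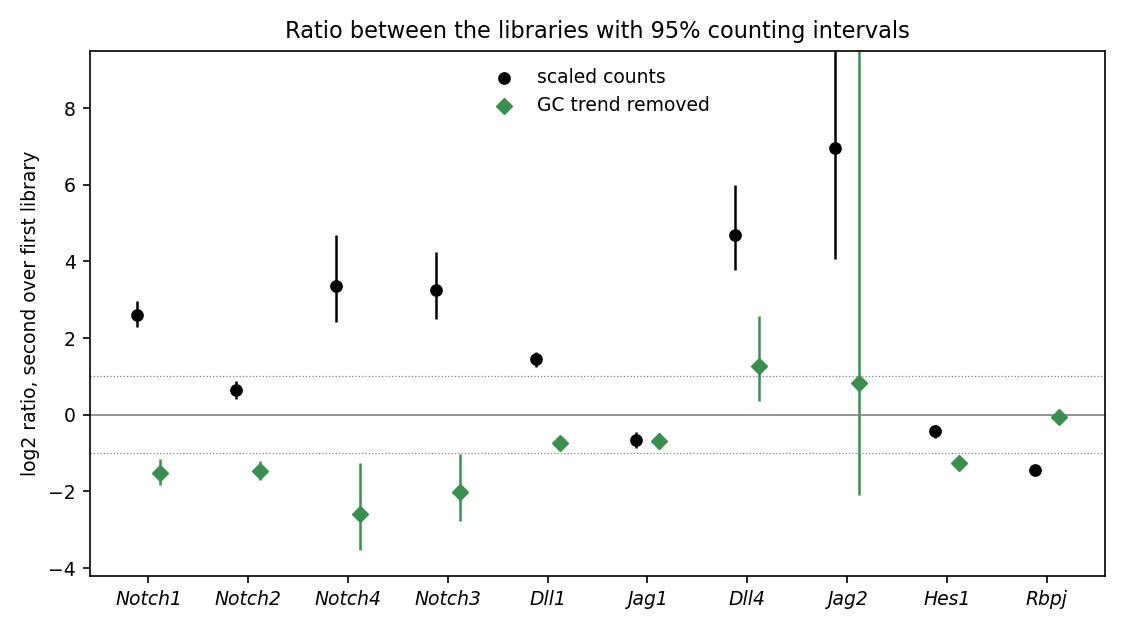
Log2 ratio of the second over the first library for each Notch gene, with 95% counting intervals, from scaled counts (circles) and after removal of the GC trend (diamonds), with dotted lines at 2-fold. The receptors lie above 0 from scaled counts and below -1 without the GC trend, while Dll4 stays above 0; both intervals of Jag2 run off the axis because its count in the first library is 0.

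The receptors are also long transcripts, and length went with the ratio that remained. After removal of the GC trend the median log2 ratio was 0.80 for genes under 1000 bases and -0.25 for the 1848 genes of 5000 bases or more, a bin that holds all 4 receptors and Rbpj. For the 212 genes that have a GC content of at least 55% and at least 5000 bases, as Notch1, Notch3 and Notch4 do, the median was -1.31 (SD 1.65 across genes). For all 3336 genes of at least 55% GC it was 0.07 (SD 1.99 across genes). The part of length in the receptors' values was not tested beyond these medians.

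Several of the genes overlap others. Dll1 shares 867 exon bases with the antisense gene A930024N18Rik, which had 46 counts in the second library, with 59 in the first. Dll4 shares 214 exon bases with the antisense gene Gm14207, which had 40 counts in the second library, with 2 in the first. Notch1 shares 1068 bases with 0610009E02Rik (13 counts in the second library, 5 in the first) and 414 with Gm13568 (1 count in the second library, 0 in the first). Notch3 shares 488 bases with Gm17276 (2 counts in the second library, 0 in the first). The sources used here do not state whether counting used strand, so reads in these stretches cannot be assigned with certainty.

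Of 66 other genes of the pathway, 60 passed the count minimum. Among them 31 were called higher in the second library (background 40.2%), 10 higher in the first (background 27.4%) and 19 in neither. Without the GC trend, 7 were called higher in the second library, 15 in the first and 38 in neither, and the median log2 ratio was 1.16 from scaled counts and -0.34 without the trend. In both libraries 34 of the 66 genes reached 1 TPM. The genes named next were taken from the 3 of highest mean TPM in each group.

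Receptor cleavage genes were abundant. Of 9 proteases and gamma-secretase subunits, 5 were called higher in the second library, with 2 in the first. Without the GC trend, 2 were called for the second library and 0 for the first. Psenen, a gamma-secretase subunit, stood at 146.3 TPM in the second library and 4.05 TPM in the first, and remained called higher in the second without the trend (log2 ratio 1.70). Aph1a, another subunit, stood at 79.2 TPM in the second library and 8.31 TPM in the first. Aph1a was called higher in the second library from scaled counts and not without the trend.

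Of 6 genes for receptor glycosylation and maturation, 4 were called higher in the second library, with 0 in the first. Without the trend, 1 was called for the second library and 0 for the first. Furin, the convertase that cuts the receptor precursor, stood at 35.5 TPM in the second library and 0.30 TPM in the first. The fringe gene Rfng stood at 28.02 TPM in the second library and 0.04 TPM in the first, and was the one still called without the trend. Poglut1, which adds O-glucose, stood at 7.79 TPM in the second library and 4.67 TPM in the first. Its log2 ratio on scaled counts was -0.53, and it was not called by either rule. Of 6 ligand endocytosis genes, 4 were called higher in the second library, with 1 in the first. Without the trend, 2 were called for the second library and 0 for the first. Epn1, an epsin, stood at 167.6 TPM in the second library and 0.16 TPM in the first, and the ubiquitin ligase gene Mib2 at 24.4 TPM in the second and 0.19 TPM in the first. Its relative Mib1 was called the other way, at 10.4 TPM in the second library and 16.9 TPM in the first. The GC content was 62.5% for Epn1, 60.5% for Mib2 and 42.3% for Mib1.

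Most nuclear cofactors were measured in both libraries, with 6 of 8 coactivators and 10 of 13 corepressors at 1 TPM or more in each. Of 8 coactivators, 1 was called higher in the second library, with 2 in the first. Without the trend, 0 were called for the second library and 4 for the first. The acetyltransferase gene Kat2b stood at 15.3 TPM in the second library and 44.5 TPM in the first, and was called higher in the first by both rules. Snw1 stood at 30.4 TPM in the second library and 16.0 TPM in the first, and Ep300, another acetyltransferase gene, at 15.7 TPM in the second and 9.52 TPM in the first. Scaled counts went the other way, with log2 ratios of -0.35 for Snw1 and -0.39 for Ep300, neither called. Without the trend Ep300 was called higher in the first library (-1.20), and Snw1 was not called. Of 13 corepressors, 6 were called higher in the second library, with 2 in the first. Without the trend, 1 was called for the second library and 4 for the first. Ncor1 stood at 151.7 TPM in the second library and 94.2 TPM in the first, and Ctbp1 at 68.4 TPM in the second and 8.05 TPM in the first. On scaled counts Ncor1 had a log2 ratio of -0.62 and was not called by either rule. Ctbp1 was called higher in the second library from scaled counts and in the first without the trend (-2.29). The deacetylase gene Hdac2 was called higher in the first library from scaled counts and not without the trend, at 27.5 TPM in the second library and 45.6 TPM in the first.

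Of 9 inhibitors and turnover genes, 4 were called higher in the second library, with 2 in the first. Without the trend, 0 were called for the second library and 2 for the first. Numb, an inhibitor of the receptors, stood at 71.99 TPM in the second library and 15.5 TPM in the first. The ubiquitin ligase gene Itch stood at 34.4 TPM in the second library and 39.0 TPM in the first. Nrarp, a feedback inhibitor, stood at 12.4 TPM in the second library and 4.86 TPM in the first. Its log2 ratio on scaled counts was 0.07 and not called, and without the trend it was called higher in the first library (-2.57). The other ligands of the family were scarce: Dlk2, Dll3 and Dlk1 reached at most 0.20 TPM and none passed the count minimum.

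Of 8 other genes of the Hes and Hey families, 5 were tested. Of these, 3 were called higher in the second library, with 1 in the first. Without the trend, 1 was called for the second library and 4 for the first. Hes6, which is known as an antagonist of Hes1 rather than a Notch target, stood at 33.7 TPM in the second library and 0.08 TPM in the first. Hes2 stood at 12.1 TPM in the second library and 1.83 TPM in the first, and Hey1 at 1.5 TPM in the second and 0.56 TPM in the first. On scaled counts Hey1 was even, at a log2 ratio of 0.009. Without the trend both were called higher in the first library, at -1.62 for Hes2 and -1.54 for Hey1. Hes5 had 0 counts in both libraries, which allows up to 0.122 CPM (counts scaled to the library size) in the second and 0.106 in the first. Hes1 was thus the one family member above 10 TPM in both libraries.

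All 4 secretory fate genes that Notch signalling holds back were called higher in the second library, beside a background of 40.2% over all genes. The share was 95.2% over nuclear protein-coding genes of at least 55% GC. It was 62.4% over those of 50% to 55%, where Atoh1 lies (53.1%). The median GC content of the 4 was 57.2%. Without the trend, 0 were called for the second library and 1 for the first. Spdef, a goblet and Paneth cell factor, stood at 10.5 TPM in the second library and 0.05 TPM in the first. Atoh1, the secretory master gene, stood at 7.73 TPM in the second library and 1.37 TPM in the first. Gfi1, which acts after Atoh1, stood at 2.03 TPM in the second library and 0.33 TPM in the first. Hes1 exceeded Atoh1 in both libraries on the TPM scale.

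**Figure D5:**
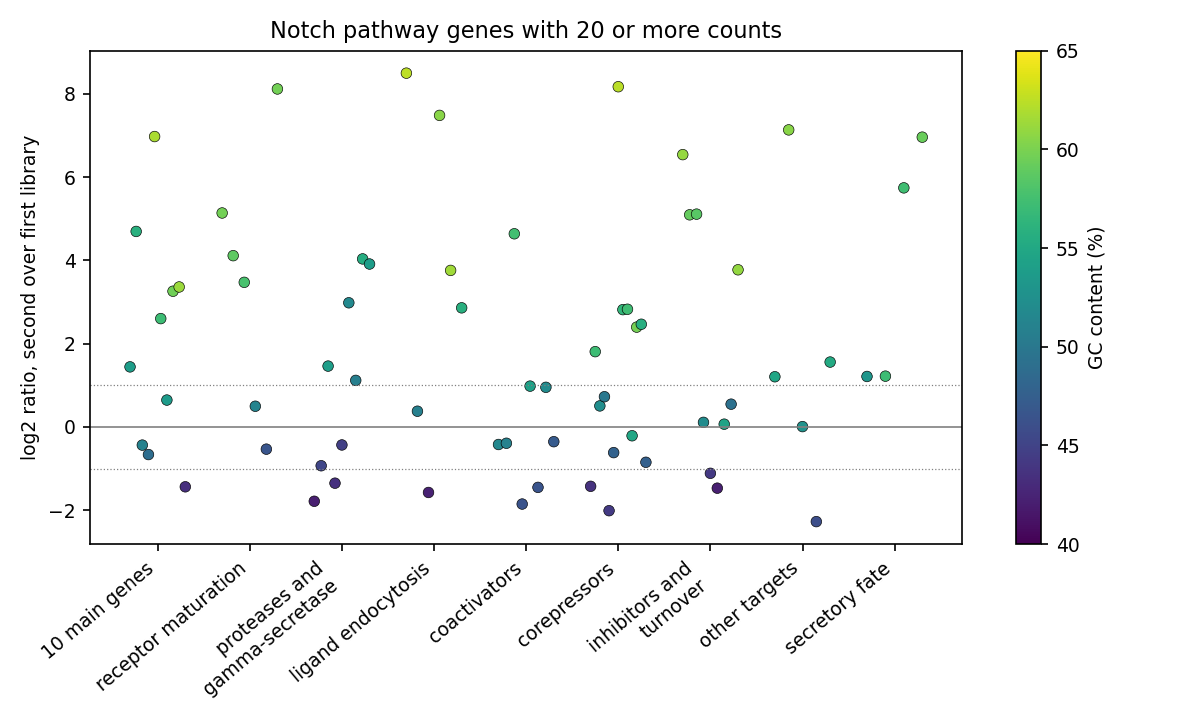
Log2 ratio of the second over the first library for every Notch pathway gene with at least 20 counts, grouped by role and coloured by GC content, with dotted lines at 2-fold; the 10 core genes are the leftmost column. Within each column genes of low GC content mostly lie towards the bottom and those of high GC content towards the top.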

How the data were processed

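Gene and transcript tables were deposited for each library on mm10 with annotation M4, per the notes deposited with the files; the aligner, the quantifier, any version and the strand setting were not given in the sources used here. The deposited values are expected counts, TPM and FPKM computed by the authors. They also deposited posterior means, the bounds of a TPM interval (a signal-type column whose level is not stated) and each transcript's percent of its gene's TPM. Symbols (42462 of 43346 genes), positions and transcript sequences came from GENCODE M21 on GRCm38, and transcript versions can differ from M4. Promoter windows came from RefSeq (GRCm38.p6).

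Expected counts were rounded to whole numbers. With 1 library a side, there was no spread for edgeR's quasi-likelihood test, so a two-sided exact binomial test was run on every gene with a total of 20 counts or more. The expected split came from edgeR 4.0.16 TMM sizes. Benjamini-Hochberg adjustment ran over all 15194 genes, and a call needed an adjusted p under 0.05 and 2-fold. The log2 ratio is the second over the first library with a prior count of 0.5, and intervals are 95% Clopper-Pearson. Depth was 24509862 expected counts in the second library, with 28277875 in the first; without molecular identifiers, reads are not independent molecules, so intervals and floors cover counting error only. The GC trend was a lowess (span 0.3) over tested nuclear protein-coding genes. A gene's GC content was the mean over its transcripts, weighted by counts; this weighting was chosen after the values were seen, in place of an unweighted mean computed first. The test was checked on simulated counts that held counting error only, so that check does not cover other differences between libraries.

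Named were the 10 genes, the 3 of highest mean TPM in each group of other pathway genes, and genes at 0 counts in both libraries, except 1 gene that is not reported here; overlapping genes and cell type markers stand beside the results they touch. The genes and lists were chosen with earlier results of these data known.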

Additional observations from a re-analysis of the deposited data

How the results depend on the processing

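Removal of the GC trend changed most calls. Without it, the 10 genes gave 1 call for the second library and 5 for the first, where scaled counts gave 6 and 1, and the median log2 ratio was -0.997 against 2.02. With an unweighted GC content, an alternative added after the data were seen although it was the definition computed first, the counts were 1 and 6 and the median -1.65. Log2 ratios that changed sign, with the weighted and then the unweighted GC content, were -1.51 and -1.47 for Notch1, -1.46 and -2.87 for Notch2, -2.01 and -1.83 for Notch3, -2.58 and -2.24 for Notch4, and -0.75 and -1.99 for Dll1. Rbpj changed sign only with the unweighted content, at 0.0748. Hes1 kept its sign but moved from -1.25 (weighted) to -5.07 (unweighted). Its GC content was 50.98% weighted and 58.84% unweighted. Of the other pathway genes 7 (weighted) and 9 (unweighted) were called higher in the second library, against 31 from scaled counts, and 16 (unweighted) higher in the first, against 10. Ratios of deposited TPM gave a median of 2.89, 0 of the 10 genes 2-fold higher in the first library and 1 other pathway gene; ratios of FPKM gave 2.44, 0 and 4. A 1.5-fold limit gave 2 of the 10 genes higher in the first library. Genes at 1 TPM or more numbered 4 in both libraries and 4 to 10 when either library was left out. They numbered 6 by posterior mean TPM, with Notch1 and Notch4 added, and 6 with TPM rescaled over nuclear protein-coding genes. Counts of calls under DESeq2 1.42.0 size factors, nuclear protein-coding counts as library size and other count minimums stayed within 1.5 times. With posterior means, added after the data were seen, Notch1 averaged 8.97 TPM against 2.34 and Notch4 2.59 TPM against 0.705, and Notch1 held 64.9% of the receptors' TPM against 43.4%. For both genes the posterior means include transcripts without expected counts, and why the estimates differ was not tested further. No paired analysis was possible because both libraries belong to 1 group of 1 animal. Notch3, Notch4, Dll4 and Jag2 had at most 13 counts each in the first library, which limits the precision of their ratios.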
